A study of Mus musculus with 6 samples.

Results

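The mitochondrial ribosomal proteins were followed in CD4+CD25+ T cells, the magnetically separated fraction enriched for regulatory T cells (Treg), of HDAC9-/- and wild type mice. Members were the genes whose platform symbol is Mrpl or Mrps followed by a number, each read from its probe set of highest mean signal, where a probe set is the group of array probes that reports one transcript. The rule found 74 of the 12393 genes with a probe set of 1 symbol, of which 47 carry a large subunit symbol (Mrpl) and 27 a small subunit symbol (Mrps). A further 3 probe sets were left out because they carry several symbols, and with them Mrpl30 and Mrpl53. The rule names genes by symbol alone, but the set was proposed with earlier results of these data known, and mean signal chose the probe set that stands for each gene.

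Total RNA of 3 wild type and 3 HDAC9-/- samples was hybridised to 1 array each. Both groups are labelled with the strain C57BL/6, no treatment is named, and the HDAC9-/- mice lack histone deacetylase 9, a class IIa deacetylase. The sources used here do not give the exons removed, the age and sex of the mice or whether each sample came from its own mouse. The p-values therefore measure only how far these samples spread, which may be technical. Magnetic separation for CD4 and CD25 leaves some other cells in the fraction, and in such bulk RNA more cells of a type and more RNA per cell cannot be told apart. Foxp3, the transcription factor that defines Treg, read 10.35, 10.29 and 10.38 on wild type arrays 1 to 3 and 10.35, 10.33 and 10.44 on HDAC9-/- arrays 1 to 3, on the log2 scale of the deposited values. The single Hdac9 probe set was dim in both groups, at 3.50, 3.74 and 4.10 in wild type and 3.74, 3.62 and 3.66 in HDAC9-/- samples, and cannot check the genotype, since its place relative to the deletion is not known here.

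Mitochondria carry their own ribosomes, which translate the few mRNAs of the mitochondrial genome into core subunits of the respiratory chain and of ATP synthase. The ribosomal RNAs come from the mitochondrial genome, whereas all the proteins are encoded in the nucleus, made in the cytosol and imported. The large subunit joins amino acids and releases the chain through an exit tunnel that faces the inner membrane; the small subunit binds the mRNA and reads its codons. In each subunit, some proteins descend from those of bacterial ribosomes and others are found only in mitochondria. T cells raise mitochondrial translation when they are activated and divide, and Treg are known to depend on respiration.

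Wild type replicate 3 stood apart from the other 5 arrays. Its median signal was 5.69, against 5.77 to 5.81 on the others, and its mean correlation with them over all probe sets was 0.991, against 0.994 to 0.996. For Gapdh, the 3-prime minus the 5-prime control signal, which reflects RNA integrity and labelling, was 0.11, 0.026 and 0.050 on wild type and 0.28, 0.17 and 0.15 on HDAC9-/- arrays 1 to 3, without overlap. That of actin was 0.41, 0.33 and 0.46 on wild type and 0.60, 0.42 and 0.47 on HDAC9-/- arrays, with overlap. The part of these values in the results below was not tested, except that main counts, medians and scores are also given without wild type replicate 3.

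No member passed the threshold of an adjusted p below 0.05 over all 22626 probe sets, where 3 probe sets (0.0133%) did. The adjusted p of the members ran from 0.398 to 0.997 (limma, Benjamini-Hochberg adjustment). Even so, the differences leaned one way: HDAC9-/- minus wild type was positive for 64 of 74 members (86.5%) and negative for 10, against 54.0% positive over all genes and 61.8% over the 6921 genes whose mean signal reached the array-wide median of 5.76 (called the brighter genes below). All 74 members lie among the brighter genes, which are therefore the closer background. The median difference was 0.11 over the members, 0.013 over all genes and 0.036 over the brighter genes. At an unadjusted p below 0.05 there were 13 members higher in HDAC9-/- samples (17.6%) and 0 lower, where the background was 6.12% higher and 2.62% lower over all genes, and 8.15% and 2.46% over the brighter genes. That excess was not seen when wild type replicate 3 or HDAC9-/- replicate 2 was left out, which also leaves fewer arrays in a group. Without the former 5 members (6.76%) were higher at this p, against 5.95% of all and 7.11% of the brighter genes. Without the latter there were 3 (4.05%), against 4.49% and 5.91%, although the median difference of the members was still 0.11.

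The 3 HDAC9-/- arrays all lay above the 3 wild type arrays for 39 members (52.7%) and all below them for 1 (1.35%). Over all genes those shares were 12.5% and 5.7%, and over the brighter genes 18.4% and 6.1%. The differences were small. They ran from -0.13 to 0.32 on the log2 scale, 32 were below 0.1 in size, 36 were positive from 0.1 up to 0.2, 5 were 0.2 or more, and 1 was below -0.1. The median standard error of a member was 0.070, which is most of a typical difference.

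**Figure D1:**
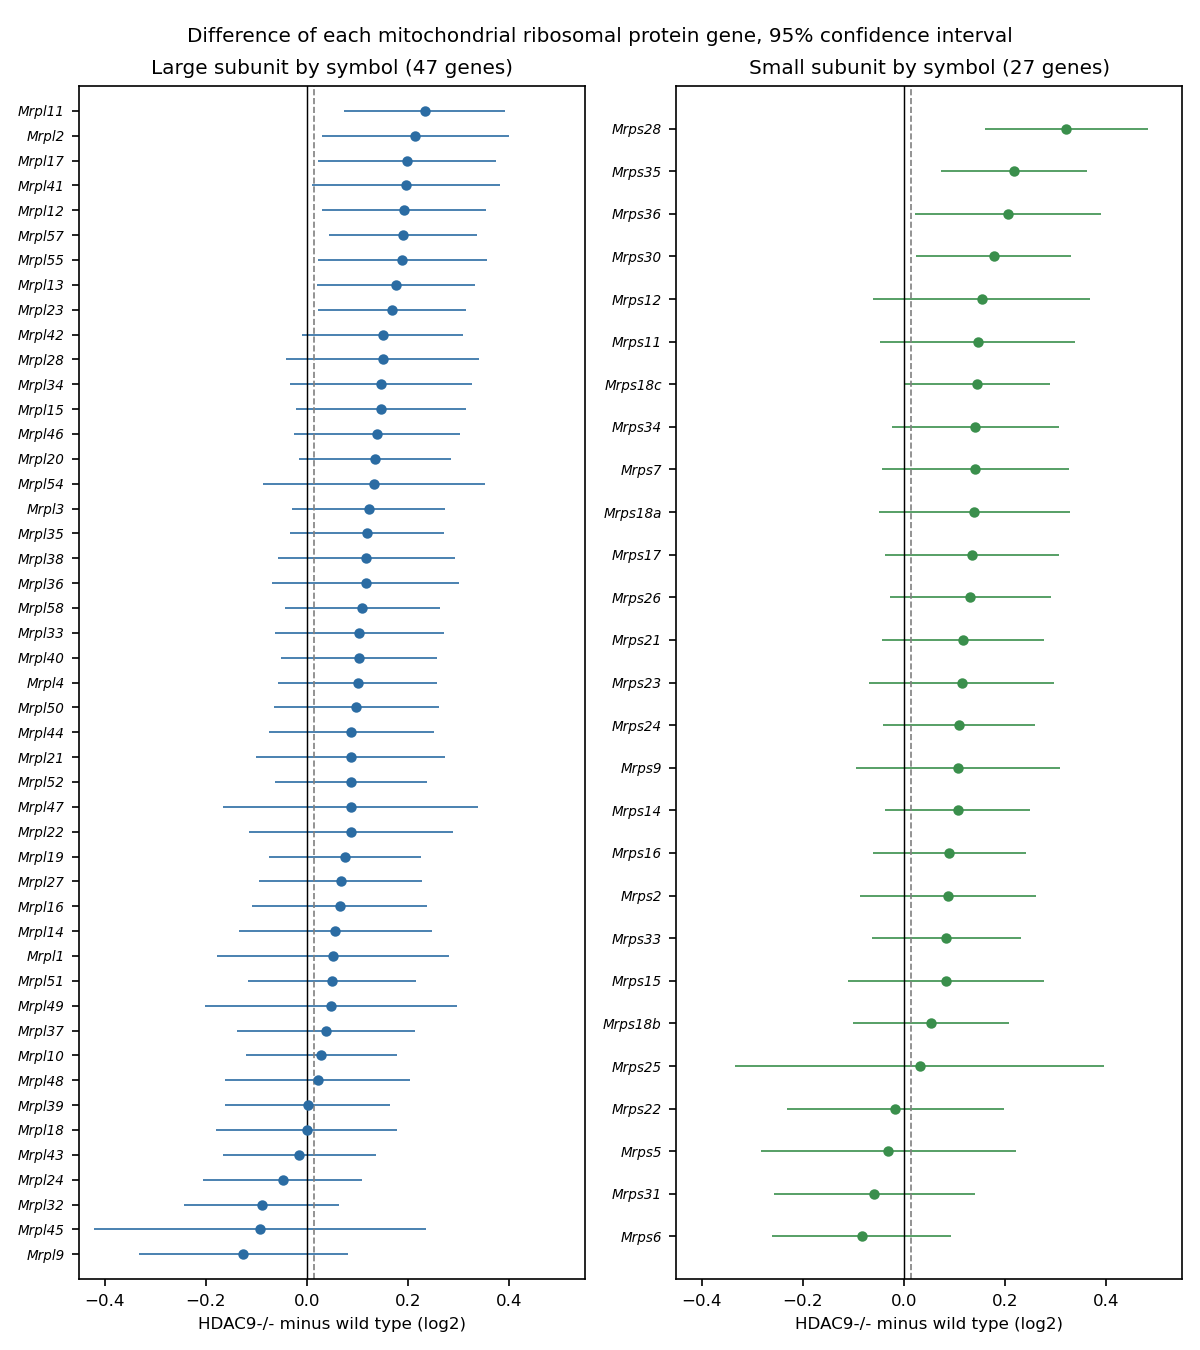
Difference between HDAC9-/- and wild type samples for each of the 74 genes (log2 units, horizontal axis), with the 95% confidence interval from limma (n = 3 arrays per group); the left panel holds the 47 genes with a large subunit symbol and the right panel the 27 with a small subunit symbol, each sorted by the difference. The solid line marks 0 and the dashed line the median of all genes (0.013); most points lie to the right of both, and Mrps28 (0.32) lies farthest right.

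The subunit scores showed the same lean in both subunits. A score is the mean over the subunit's genes of the value minus that gene's mean over the 6 arrays, and it carries no p here. The large subunit score was -0.021, -0.014 and -0.10 on wild type arrays 1 to 3 and 0.044, 0.043 and 0.051 on HDAC9-/- arrays 1 to 3, that is -0.046 ± 0.049 in wild type and 0.046 ± 0.0045 in HDAC9-/- as mean ± SD (n = 3). The small subunit score was -0.018, -0.030 and -0.11 on wild type arrays 1 to 3 and 0.069, 0.057 and 0.032 on HDAC9-/- arrays 1 to 3, that is -0.053 ± 0.050 in wild type and 0.053 ± 0.019 in HDAC9-/- as mean ± SD (n = 3). In both subunits every HDAC9-/- array lay above every wild type array, and wild type replicate 3 was by far the lowest array. The order of the genotypes was not particular to these lists. The smaller scores of the cytosolic ribosomal proteins, described below, did not overlap either, with HDAC9-/- higher, whereas those over the brighter genes overlapped. The brighter genes' scores were 0.014, -0.0032 and -0.068 on wild type and 0.029, 0.0012 and 0.027 on HDAC9-/- arrays 1 to 3. The low place of wild type replicate 3 was thus not particular to the mitochondrial ribosome either. The HDAC9-/- arrays kept within a narrow range for the large subunit (SD 0.0045), whereas the wild type SD of 0.049 came mostly from replicate 3.

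The score difference was 0.092 for the large and 0.11 for the small subunit, and the gap between them was not tested. Without wild type replicate 3 the score differences were 0.063 and 0.077. Within the large subunit, 41 of 47 genes (87.2%) were positive with a median of 0.10, and 24 (51.1%) had groups that did not overlap with HDAC9-/- higher. Within the small subunit, 23 of 27 (85.2%) were positive with a median of 0.11, and 15 (55.6%) did not overlap in that direction. Over the brighter genes 61.8% were positive and 18.4% did not overlap in that direction, and over all genes 54.0% and 12.5%. Genes with a bacterial homologue and genes specific to mitochondria had medians of 0.10 (29 genes) and 0.093 (18 genes) in the large subunit, and of 0.11 (15 genes) and 0.084 (9 genes) in the small one. All 4 classes thus had positive medians. Without wild type replicate 3 they were 0.074 and 0.061 in the large and 0.086 and 0.083 in the small subunit. The score of the mitochondria-specific small subunit genes overlapped between the genotypes, with wild type replicate 2 at 0.015 and HDAC9-/- replicate 3 at 0.0089.

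**Figure D2:**
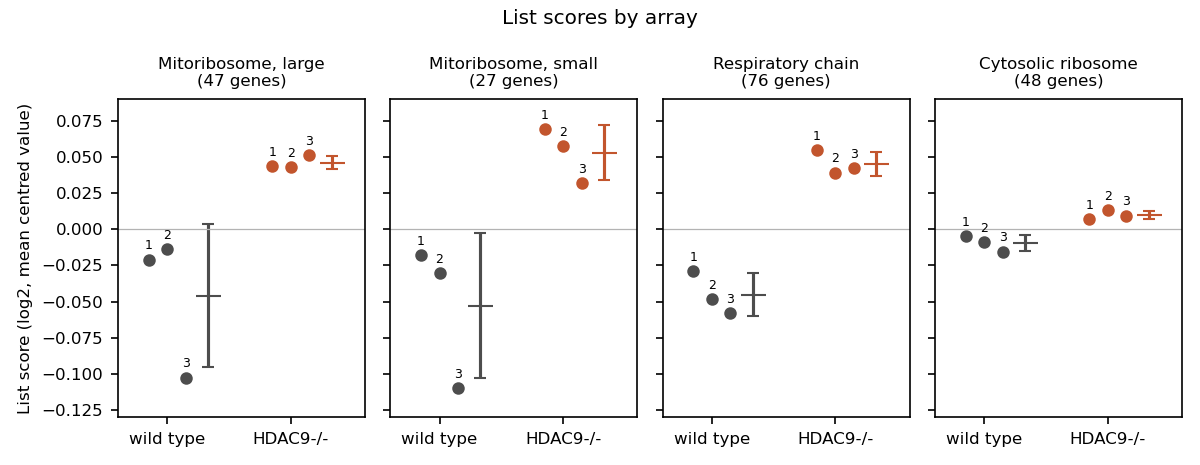
Scores of 4 gene lists on each array (vertical axis, log2 units, mean over the list of the value minus the gene's own mean over the 6 arrays); points are arrays, numbered by replicate, and the bar beside them is the mean with the SD (n = 3). In both mitochondrial ribosome panels wild type replicate 3 (-0.10 and -0.11) lies far below wild type replicates 1 and 2, while the respiratory chain scores are tighter and those of the cytosolic ribosome lie close to 0.

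Among large subunit proteins that bind the ribosomal RNA and have a bacterial homologue, Mrpl2, a neighbour of the catalytic centre, read 8.79, 8.89 and 8.67 on wild type and 8.96, 9.01 and 9.02 on HDAC9-/- arrays 1 to 3. The groups did not overlap, and the difference was 0.21 (standard error 0.078; limma, adjusted p = 0.543). Wild type replicate 3 was its lowest array, and the difference without that array was 0.16. Mrpl13, which binds the ribosomal RNA in the body of the subunit, read 9.96, 10.00 and 9.92 in wild type and 10.17, 10.16 and 10.08 in HDAC9-/- samples, a difference of 0.18. Mrpl20, also of bacterial descent, read 9.27, 9.29 and 9.20 (wild type) and 9.40, 9.39 and 9.37 (HDAC9-/-), a difference of 0.13. Mrpl55, the counterpart of a bacterial protein of the subunit interface, read 7.81, 7.96 and 7.88 (wild type) and 8.11, 8.03 and 8.07 (HDAC9-/-), a difference of 0.19. In these 3 genes too each HDAC9-/- array lay above each wild type array, although in Mrpl55 wild type replicate 1, not 3, was the lowest.

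The stalk is the mobile arm of the large subunit that recruits the translation factors. Its base protein Mrpl11 read 8.22, 8.34 and 8.29 in wild type and 8.48, 8.51 and 8.56 in HDAC9-/- samples, the largest difference of the large subunit genes at 0.23 (95% confidence interval 0.074 to 0.39; limma, adjusted p = 0.454). Mrpl12, the stalk's tip protein, read 9.45, 9.50 and 9.37 (wild type) and 9.58, 9.65 and 9.67 (HDAC9-/-), a difference of 0.19. Neither gene's groups overlapped, and without wild type replicate 3 the differences were 0.24 and 0.16. Mrpl10, which anchors Mrpl12 to the ribosome, read 8.34, 8.37 and 8.37 (wild type) and 8.43, 8.39 and 8.34 (HDAC9-/-), and its difference of 0.028 lay well within its standard error of 0.063. Mrpl54 read 8.47, 8.36 and 8.38 (wild type) and 8.53, 8.39 and 8.69 (HDAC9-/-); the groups overlapped, and its difference of 0.13 was 0.057 without HDAC9-/- replicate 3. The 4 measured stalk genes thus had positive differences that ranged from 0.028 to 0.23.

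The rim of the polypeptide exit tunnel, where new chains leave toward the membrane, varied more among its 8 genes. Mrpl17 read 9.24, 9.32 and 9.12 in wild type and 9.43, 9.40 and 9.44 in HDAC9-/- samples, a difference of 0.20. Mrpl23, which sits at the tunnel's mouth, read 9.81, 9.79 and 9.74 (wild type) and 9.97, 9.95 and 9.94 (HDAC9-/-), a difference of 0.17. Both had groups that did not overlap. Mrpl24 read 10.41, 10.40 and 10.51 (wild type) and 10.36, 10.41 and 10.40 (HDAC9-/-), with overlap and a difference of -0.048. Mrpl45, which ties the ribosome to the inner membrane, read 8.38, 8.63 and 8.19 (wild type) and 8.11, 8.43 and 8.38 (HDAC9-/-), and its difference of -0.093 had a standard error of 0.14. The spread between its wild type arrays was wider than the difference. Mrpl22 differed by 0.086, Mrpl44 by 0.088, Mrpl47 by 0.087 and Mrpl39 by 0.0011, all with overlapping groups. The median of the 8 genes was 0.087, with 6 positive, and it was 0.00017, with 4 positive, without wild type replicate 3.

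The central protuberance, the crown of the large subunit that contacts the small one, had differences between -0.00088 and 0.14 in the 7 genes assigned to it here, a list that may be partial. Mrpl46 read 8.50, 8.50 and 8.37 in wild type and 8.61, 8.61 and 8.57 in HDAC9-/- samples, without overlap. Mrpl40 (0.10), Mrpl38 (0.12) and Mrpl52 (0.087) also had groups that did not overlap, with HDAC9-/- higher; that of Mrpl38 was 0.068 without wild type replicate 3. Mrpl52, the member with the brightest probe set, read 10.90, 10.89 and 10.97 (wild type) and 10.99, 11.01 and 11.03 (HDAC9-/-), and here wild type replicate 3 was the highest, not the lowest, of its group. Mrpl27 (0.067), Mrpl48 (0.022) and Mrpl18 (-0.00088) overlapped.

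Of the large subunit genes specific to mitochondria, Mrpl57 read 9.59, 9.58 and 9.63 in wild type and 9.77, 9.82 and 9.78 in HDAC9-/- samples, a difference of 0.19 with a 95% confidence interval of 0.043 to 0.34. It was 0.21 without wild type replicate 3, which was the highest wild type array for this gene. Mrpl41 read 9.20, 9.12 and 9.04 (wild type) and 9.39, 9.33 and 9.23 (HDAC9-/-), a difference of 0.20, and Mrpl42 read 9.32, 9.27 and 9.19 (wild type) and 9.44, 9.38 and 9.42 (HDAC9-/-), a difference of 0.15. In all 3 genes the groups did not overlap. Mrpl58, a ribosome rescue factor that became part of the large subunit, read 9.62, 9.58 and 9.62 (wild type) and 9.74, 9.75 and 9.65 (HDAC9-/-), with a difference of 0.11, likewise without overlap.

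In the small subunit, Mrps28 had the largest difference of all 74 genes. It read 8.31, 8.31 and 8.20 on wild type and 8.58, 8.65 and 8.56 on HDAC9-/- arrays 1 to 3. The lowest HDAC9-/- array lay well above the highest wild type array. The difference was 0.32 (standard error 0.068), which is 1.25-fold with a 95% confidence interval of 1.12 to 1.40 (limma, adjusted p = 0.398), and it was 0.29 without wild type replicate 3. Mrps35, a protein found only in mitochondrial small subunits, read 7.99, 7.95 and 7.95 (wild type) and 8.19, 8.16 and 8.19 (HDAC9-/-). Its arrays lay close together within each group (SD 0.026 and 0.016, n = 3), and its difference was 0.22 (standard error 0.061; limma, adjusted p = 0.445).

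Mrps18c, the counterpart of a bacterial small subunit protein, read 9.52, 9.51 and 9.56 in wild type and 9.66, 9.69 and 9.67 in HDAC9-/- samples, a difference of 0.14 without overlap. Mrps14, a protein of the subunit's head, read 10.50, 10.54 and 10.48 (wild type) and 10.61, 10.61 and 10.62 (HDAC9-/-); the difference was 0.11 and the groups again did not overlap. Mrps12, part of the decoding centre where codons are read, read 8.72, 8.79 and 8.50 (wild type) and 8.84, 8.84 and 8.79 (HDAC9-/-), a difference of 0.15 with only a narrow gap between the groups; it was 0.068 without wild type replicate 3, its lowest array. Mrps26 (0.13), Mrps34 (0.14), Mrps7 (0.14) and Mrps17 (0.13) had no overlap either, always with HDAC9-/- higher. Mrps2 (0.087), Mrps15 (0.084), Mrps9 (0.11) and Mrps11 (0.15) overlapped.

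**Figure D3:**
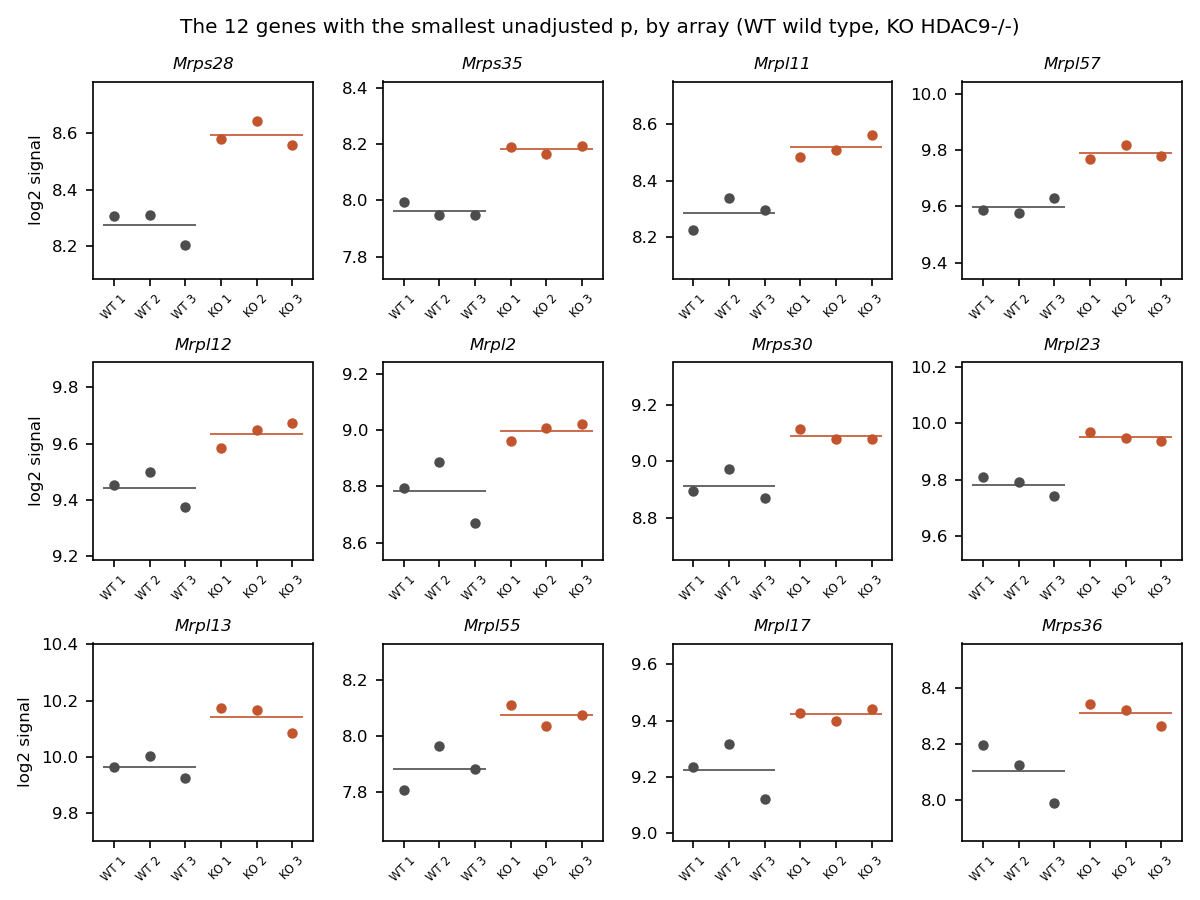
Log2 signal (vertical axis) of the 12 genes with the smallest unadjusted p on each of the 6 arrays, each panel spanning 0.7 log2 units around the gene's mean; horizontal lines are group means (n = 3). In every panel the HDAC9-/- points lie above the wild type points, and the genes differ in which wild type array is lowest, for example replicate 3 in Mrpl2 (8.67) and replicate 1 in Mrpl11 (8.22). Since the genes were ranked by this difference, the panels describe the values and do not test them.

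The symbols of 3 members do not match the place of their protein. Mrps18a and Mrps30 are built into the large subunit despite their names, and Mrps36 is now assigned to the alpha-ketoglutarate dehydrogenase complex of the citric acid cycle. Mrps30 read 8.90, 8.97 and 8.87 in wild type and 9.11, 9.08 and 9.08 in HDAC9-/- samples, a difference of 0.18. Mrps36 read 8.20, 8.13 and 7.99 (wild type) and 8.34, 8.32 and 8.27 (HDAC9-/-), a difference of 0.21. Neither overlapped. Mrps18a read 8.52, 8.44 and 8.30 (wild type) and 8.58, 8.59 and 8.51 (HDAC9-/-), a difference of 0.14 with overlap that was 0.079 without wild type replicate 3. With Mrps18a and Mrps30 counted as large and Mrps36 left out, the score differences were 0.094 for the large and 0.097 for the small subunit.

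The 10 members with a negative difference were Mrpl9, Mrpl45, Mrpl32, Mrpl24, Mrpl43 and Mrpl18 of the large and Mrps6, Mrps31, Mrps5 and Mrps22 of the small subunit. Mrpl9, an elongated protein of the subunit's surface, read 8.28, 8.25 and 8.36 in wild type and 8.32, 8.13 and 8.07 in HDAC9-/- samples, a difference of -0.13 (standard error 0.087). HDAC9-/- replicate 1 lay among the wild type values, so the groups overlapped. Mrpl32, which is cut to its mature form by an inner membrane protease, read 9.56, 9.53 and 9.47 (wild type) and 9.39, 9.45 and 9.45 (HDAC9-/-), and was the only member whose HDAC9-/- arrays all lay below the wild type arrays, with a difference of -0.090. Mrps6 read 8.48, 8.39 and 8.33 (wild type) and 8.37, 8.33 and 8.24 (HDAC9-/-), a difference of -0.083, and Mrps31 read 6.75, 6.73 and 6.65 (wild type) and 6.75, 6.70 and 6.51 (HDAC9-/-), a difference of -0.058, both with overlap. Mrps5 (-0.031), Mrps22 (-0.018), Mrpl43 (-0.015) and Mrpl18 (-0.00088) differed by less than their standard errors.

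Wild type replicate 3 was the lowest of the 6 arrays for 45 of 74 members. It also had the lowest score over the brighter genes (-0.068), and the same count over those genes is not given here. Wild type replicates 1 and 2 were lowest for 9 and 10, and HDAC9-/- replicates 1 to 3 for 4, 1 and 5. HDAC9-/- replicates 1 to 3 were the highest array for 21, 14 and 25 members. Without wild type replicate 3, 59 of 74 members (79.7%) were positive, against 53.4% of all genes and 54.6% of the brighter genes, and the median was 0.084, against 0.014 over the brighter genes. The remaining groups of 2 and 3 arrays did not overlap for 40 members (54.1%) with HDAC9-/- higher and for 4 with HDAC9-/- lower. Over the brighter genes these shares were 22.7% and 14.6%. The count of members with an unadjusted p below 0.05, given above, was at the background in the same fit. The median moved from 0.10 to 0.068 in the large and from 0.11 to 0.086 in the small subunit.

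Some members depended on that array more than others. Of those named above, the difference without it was 0.014 for Mrpl22, 0.055 for Mrpl44, 0.095 for Mrps11, 0.025 for Mrps15 and 0.086 for Mrps17, and that of Mrpl39 was -0.037. Mrps25 read 7.77, 7.76 and 7.23 in wild type and 7.65, 7.67 and 7.53 in HDAC9-/- samples, so that wild type replicate 3 lay far below every other array; its difference was 0.031 with all arrays and -0.15 without it. Mrpl47 read 8.19, 8.20 and 7.85 (wild type) and 8.13, 8.17 and 8.20 (HDAC9-/-), and its difference went from 0.087 to -0.027. For Mrpl49, at 7.34, 7.28 and 6.98 (wild type) and 7.25, 7.24 and 7.25 (HDAC9-/-), it went from 0.047 to -0.064. Mrpl1 read 6.35, 6.37 and 6.20 (wild type) and 6.35, 6.22 and 6.51 (HDAC9-/-), a difference of 0.052, and its HDAC9-/- arrays spread more widely than the groups differed.

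**Figure D4:**
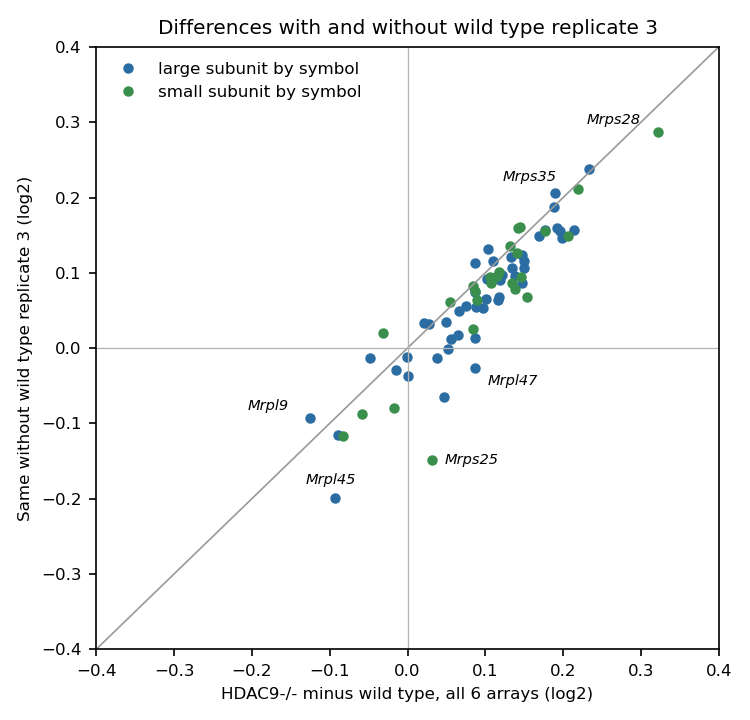
Difference between HDAC9-/- and wild type samples with all 6 arrays (horizontal axis, log2) against the difference without wild type replicate 3 (vertical axis, log2), 1 point per gene, coloured by subunit symbol; the diagonal marks equal values. Most points lie a little below the diagonal and above 0, and Mrps25 (0.031 and -0.15) and Mrpl47 (0.087 and -0.027) lie farthest below it. Both axes share 5 arrays, so the closeness of the points to the diagonal is no separate evidence.

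Of the 74 members, 33 had more than 1 probe set. All probe sets were positive for 21 of them, all negative for 2 and of mixed sign for 10. Among the 53 probe sets that did not stand for a gene, 40 were positive, with a median of 0.062. Mrpl11 had a like difference in its next brightest probe set, which read 8.25, 8.13 and 8.18 in wild type and 8.49, 8.46 and 8.34 in HDAC9-/- samples (0.24), and one of 0.19 in the third, both without overlap. The dimmest of its 4 probe sets differed by -0.14. The other bright Mrpl41 probe set differed by 0.14 without overlap, and the dim one by -0.20.

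Mrpl15, a large subunit protein with 7 probe sets, had differences from -0.0085 to 0.54, with 0.15 in the brightest one. Both the brightest probe set and that with the largest difference have a suffix that marks probes that can bind other transcripts. The brightest Mrpl15 probe set without that suffix differed by -0.0085 with overlap, and the next by 0.13 without overlap. In Mrpl19 the brightest probe set, of that kind too, differed by 0.075 and the other 2 by -0.12 and -0.19. Mrpl17, Mrpl21, Mrpl33, Mrpl39, Mrps2 and Mrps25 also had probe sets of both signs, with -0.067, -0.15, -0.17, -0.020, -0.034 and -0.26 in the dimmer probe set of opposite sign. The brightest probe set ended in such a suffix for 6 members. With all probe sets of such a suffix left out, 34 members did not overlap with HDAC9-/- higher, instead of 39, and the median was 0.10. Mrpl37, Mrps12 and Mrps24 had no other probe set to take the place of theirs, so the 34 are counted over fewer members. Mrps12 and Mrps24 were among the 39. The share over all genes with such probe sets left out is not given here, so the 34 stand without a background.

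The rule did not use the promoters, which were searched for motifs. A RefSeq promoter window (GRCm38.p6, 250 bases before to 50 after the annotated start) was at hand for 65 members, in 71 windows. Motifs of 3 factors known to act on nuclear genes for mitochondrial proteins were searched on both strands: GCGCA and GCGC with any 1 base between them for nuclear respiratory factor 1 (NRF1), CCGGAAGT for ETS factors such as GABP, and AAGATGGC for YY1. The NRF1 letters were in 16.9% of member windows and 4.60% of all 32851 windows, the ETS letters in 15.5% and 3.89%, and the YY1 letters in 15.5% and 2.75%. The TATA box letters TATAAA were in 7.04% and 13.6%. Restricted to protein-coding genes, the shares of all windows were 6.38%, 5.15%, 3.05% and 12.6%. At least 1 of the NRF1, ETS and YY1 motifs was in 45.1% of member windows, those of 32 members, against 10.4% of all and 13.5% of coding windows, so about as many members carried none, and no hits of different motifs shared bases. A match to these letters is a description and does not show that a factor binds.

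The 80 bases before the start are printed for up to 2 members per motif, those with the smallest p that carry it there, with the motif in capitals. Since they were picked for carrying the motif within these bases, their positions do not show where it lies in other members. All are given 5′ to 3′ on the strand of the gene.
Mrpl57, NRF1, GRCm38.p6 chr14:57826159-57826238 (+ strand): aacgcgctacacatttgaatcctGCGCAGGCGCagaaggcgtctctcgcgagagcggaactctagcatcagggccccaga
Mrpl17, NRF1, GRCm38.p6 chr7:105811088-105811167 (- strand): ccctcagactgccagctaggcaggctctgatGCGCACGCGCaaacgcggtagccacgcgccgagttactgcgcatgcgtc
Mrps26, ETS, GRCm38.p6 chr2:130563677-130563756 (+ strand): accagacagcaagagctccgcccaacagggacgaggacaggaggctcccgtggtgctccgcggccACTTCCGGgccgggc
Mrpl3, ETS, GRCm38.p6 chr9:105053188-105053267 (+ strand): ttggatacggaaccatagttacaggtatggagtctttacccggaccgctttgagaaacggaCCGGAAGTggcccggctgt
Mrpl36, YY1, GRCm38.p6 chr13:73330929-73331008 (+ strand): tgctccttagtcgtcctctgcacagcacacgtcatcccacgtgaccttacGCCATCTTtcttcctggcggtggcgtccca
Counted from the annotated start, the motifs begin at -57, -49, -15, -19 and -30 in the order shown. The differences of these genes, 0.19 for Mrpl57, 0.20 for Mrpl17, 0.13 for Mrps26, 0.12 for Mrpl3 and 0.12 for Mrpl36 (0.064 without wild type replicate 3), were all positive, and the members were picked for a small p. Over all members with a window, the median difference was 0.098 with and 0.10 without the NRF1 letters, 0.067 and 0.11 for the ETS letters, and 0.12 and 0.089 for the YY1 letters. These medians were not tested against each other.

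The other parts of the mitochondrial translation machinery did not pass either: 0 members of any list below had an adjusted p below 0.05. Mitoribosomal proteins under other symbols had a median of 0.037 over 4 genes, all positive. Chchd1, a small subunit protein, read 9.09, 9.07 and 9.08 in wild type and 9.15, 9.10 and 9.20 in HDAC9-/- samples, without overlap, whereas Ptcd3 (0.059), Dap3 (0.016), also a small subunit protein, and Gadd45gip1 (0.012), a large subunit protein, overlapped. Without wild type replicate 3 the median of these 4 genes was 0.00038.

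Of 9 mitochondrial translation factors, 5 were positive (55.6%), against 61.8% of the brighter genes. The median of these factors was 0.040, against 0.036 over the brighter genes, and it was -0.021 without wild type replicate 3. Gfm2, which helps to split the ribosome after termination, read 6.57, 6.18 and 6.32 in wild type and 5.99, 6.16 and 6.05 in HDAC9-/- samples, a difference of -0.29. Tufm, the elongation factor that brings in the tRNAs, read 8.65, 8.60 and 8.54 (wild type) and 8.52, 8.48 and 8.47 (HDAC9-/-), a difference of -0.11. In both genes all HDAC9-/- arrays lay below the wild type arrays. Of 18 assembly factors, 10 were positive (55.6%), and their median was 0.037 (-0.033 without wild type replicate 3), again near the brighter genes' median. Tfb1m, which methylates the small subunit RNA, read 6.90, 6.87 and 6.82 (wild type) and 7.04, 6.96 and 7.07 (HDAC9-/-), a difference of 0.16 without overlap, and Mrm2, which methylates the large subunit RNA, differed by -0.24 with overlap.

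The aminoacyl-tRNA synthetases of mitochondria were positive for 9 of 11 genes, with a median of 0.089. Rars2 (0.17) and Iars2 (0.13), the enzymes for arginine and isoleucine, did not overlap, with HDAC9-/- higher. These 2 of 11 genes (18.2%) were near the 18.4% of the brighter genes that did not overlap in that direction. Regulators of mitochondrial transcription and biogenesis were positive for 7 of 15 genes, with a median of -0.0092 (-0.058 without wild type replicate 3). Yy1 read 10.20, 10.13 and 10.17 in wild type and 10.03, 10.00 and 9.98 in HDAC9-/- samples, with all HDAC9-/- arrays below the wild type ones and a difference of -0.16. Gabpb1, a subunit of GABP, read 8.11, 8.06 and 7.99 (wild type) and 8.20, 8.13 and 8.14 (HDAC9-/-), with the opposite order and a difference of 0.10. Genes of protein import and the outer membrane were positive for 11 of 15, with a median of 0.057. Of these, Vdac1, the main pore of the outer membrane, read 9.78, 9.74 and 9.76 (wild type) and 10.04, 9.93 and 9.99 (HDAC9-/-), a difference of 0.23 (limma, adjusted p = 0.445), and Tomm40, the import channel, differed by 0.16.

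**Figure D5:**
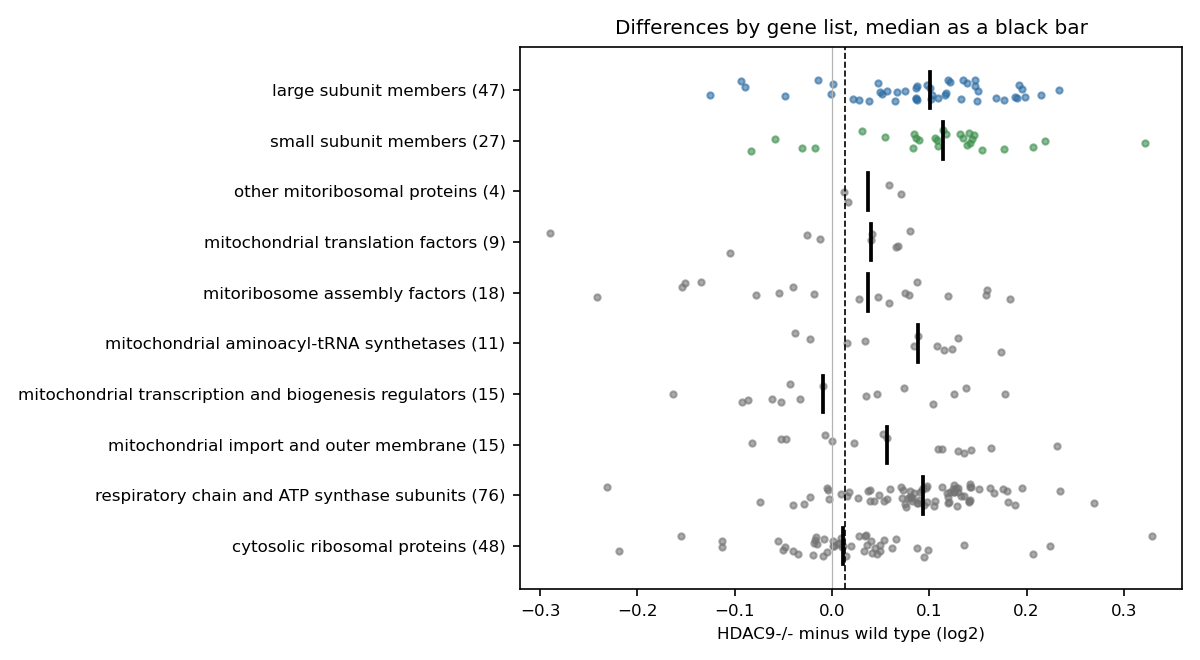
Difference between HDAC9-/- and wild type samples (log2, horizontal axis) for each gene of the mitochondrial ribosome and of 8 other lists, 1 point per gene with the number of genes in brackets; black bars are medians and the dashed line is the median of all genes (0.013). The medians of the large (0.10) and small (0.11) subunit and of the respiratory chain (0.094) lie right of the dashed line, and that of the cytosolic ribosomal proteins (0.011) lies on it. The median of the brighter genes (0.036) is not drawn. Points are spread vertically only to be seen.

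The mitochondrial ribosomal proteins help to build the respiratory chain and ATP synthase. Their median and their shares of positive and non-overlapping genes were near those of the subunits of these complexes. The latter were positive for 68 of 76 genes, with a median of 0.094 and 46 genes (60.5%) without overlap and higher in HDAC9-/- samples. Other counts differed. At an unadjusted p below 0.05 (limma), 6 of these subunits (7.89%) were higher, against 13 members (17.6%) and 8.15% of the brighter genes. Without wild type replicate 3, 79.7% of the members and 94.7% of these subunits were positive. The score of these subunits was -0.029, -0.048 and -0.058 on wild type arrays 1 to 3 and 0.055, 0.039 and 0.042 on HDAC9-/- arrays 1 to 3. Wild type replicate 3 thus stood out less there than in the mitochondrial ribosome. Cytosolic ribosomal proteins, which translate the mRNAs of the nucleus, were positive for 31 of 48 genes, with a median of 0.011. Of the 48 genes, 10 (20.8%) had no overlap with HDAC9-/- higher and 2 (4.17%) with HDAC9-/- lower. Those shares were 18.4% and 6.1% over the brighter genes and 12.5% and 5.7% over all genes. When the array medians were aligned, the median of the cytosolic ribosomal proteins was -0.015, while those of the members and of the respiratory chain were 0.081 and 0.068. The differences between these lists were not tested, since genes are not replicates.

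Markers of other cells and of division differed between the same samples. Of 12 myeloid markers all were positive; their score was -0.67, -0.11 and -0.13 on wild type arrays 1 to 3 and 0.40, 0.49 and 0.019 on HDAC9-/- arrays 1 to 3, without overlap, and S100a9, a neutrophil and monocyte protein, read 9.94, 10.99 and 10.98 in wild type and 11.49, 11.75 and 11.70 in HDAC9-/- samples. Cell cycle genes were positive for 25 of 26, with a score of -0.15, -0.024 and -0.14 on wild type arrays 1 to 3 and 0.14, 0.026 and 0.15 on HDAC9-/- arrays 1 to 3, also without overlap. Summed over the list, the myeloid log2 signal was 91.6 to 98.4 on wild type and 100.0 to 105.7 on HDAC9-/- arrays. For 8 markers of CD8 T and natural killer cells, 6 of them positive, the sum was 63.4 to 65.0 on wild type and 64.1 to 67.0 on HDAC9-/- arrays, and for 5 B cell markers, all positive, it was 33.6 to 34.6 on wild type and 32.7 to 36.3 on HDAC9-/- arrays, both with overlap. All 4 plasma cell markers were negative, with a sum of 28.7 to 29.4 on wild type and 27.6 to 28.8 on HDAC9-/- arrays, again with overlap. No marker reads 0 on this scale, on which absent transcripts keep a background signal. Red cell and platelet markers, 2 of 5 positive, and Treg and T cell markers, 5 of 10 positive, overlapped as well, with medians of -0.0043 and -0.0022. The part of these cells, and of division, in the differences of the mitochondrial ribosomal proteins was not tested.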

How the data were processed

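Gene expression was measured on 6 arrays, 3 per genotype. The authors deposited 1 log2 value per probe set and array, made with RMA per the submitters' processing notes. The RMA version and settings were not given in the sources used here. RMA pulls dim probe sets together, so small fold changes may be understated, and values of different probe sets are not compared as levels. The number of arrays limits the precision. Genotype and replicate number come from the titles.

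Of 22690 probe sets, 64 controls were left out and 22626 entered a linear model of genotype in limma 3.58.1 under R 4.3.3 (lmFit and eBayes; Benjamini-Hochberg adjustment, threshold 0.05), with no filter on signal. Only probe sets with 1 symbol were named (20380; 691 had several and 1555 none). Lists are described by counts and medians, without a test. The fit was tested on simulated data. Same-numbered replicates of the genotypes are not shown to be paired (see the closing section for the check).

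The members, the lists and the role groups were chosen with earlier results of these data known. Members named were the 16 with the smallest p, the 5 largest differences each way, the 3 brightest and 3 dimmest, those whose probe sets differ in sign or by more than 0.3, the stalk, tunnel and protuberance genes and Mrps18a, Mrps30 and Mrps36; others named were added after their values were seen. Genes of the other lists were named by smallest p, up to 3 per list, and any others after their values were seen. Alternatives were another quantile normalization, aligned medians, a filter on dim probe sets, trended and robust eBayes, weighted arrays, a block for replicate number, leaving out each array, the mean of a gene's probe sets, other thresholds and another assignment of 3 members. Figures used matplotlib 3.10.9 in Python 3.11.15.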

Additional observations from a re-analysis of the deposited data

How the results depend on the processing

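The lean of the members toward HDAC9-/- kept its sign under each alternative run. Their median was 0.081 with aligned array medians, 0.087 when a gene's probe sets were averaged, 0.089 with weighted arrays and 0.094 after a further quantile normalization. With 1 array left out it ran from 0.084 to 0.12, for the large subunit from 0.068 to 0.12 and for the small from 0.086 to 0.13, and the score differences from 0.063 to 0.11 and 0.077 to 0.12. No member was called under any alternative (limma), including an adjusted p below 0.10. The number of members with an unadjusted p below 0.05 and higher in HDAC9-/- was less stable. It was 13 in the fit reported (17.6%; 8.15% of the brighter genes), 7 with aligned array medians (9.46%; 5.07%), 20 with dim probe sets left out (27.0%; 11.5%) and 23 with trended and robust eBayes (31.1%; 12%). With 1 array left out it was 3 to 9, at or below the brighter genes' share without HDAC9-/- replicate 2 (4.05%; 5.91%) and wild type replicate 3 (6.76%; 7.11%). Members without overlap and lower were 1 (1.35%), against 6.1% of the brighter genes. They were 2 after quantile normalization, 3 with averaged probe sets and 1 to 4 with 1 array left out. The 4 were those without wild type replicate 3, where the share of the brighter genes was 14.6%. Shares of the brighter genes in the other settings are not given here. Of all probe sets, 3 passed as reported, 15 with trended and robust eBayes, 6 with weighted arrays, 1 when each gene kept a single probe set, 5 at an adjusted p below 0.10 and 0 to 6 with 1 array left out.

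With the replicate number as a block, 0 probe sets passed and 6 members were higher at an unadjusted p below 0.05 (8.11%; 5.62% of the brighter genes); deviations of same-numbered arrays correlated at 0.036, 0.099 and -0.25, so the numbers are not shown to pair the samples. The directions of the near-zero members were not stable. With aligned array medians, Mrpl39 and Mrpl48 turned to -0.025 and -0.0040, and under quantile normalization Mrpl39, Mrpl48 and Mrps25 to -0.0053, -0.0013 and -0.0032. With array weights Mrpl1, Mrpl49, Mrpl48, Mrps25, Mrpl39 and Mrpl18 read -0.021, -0.035, -0.00091, -0.081, -0.033 and 0.0038. With averaged probe sets Mrpl33, Mrpl19, Mrpl21, Mrps25 and Mrpl39 read -0.033, -0.079, -0.030, -0.071 and -0.0093. With 1 array left out, Mrps5 turned to 0.0033 without wild type replicate 1, 0.020 without wild type replicate 3 and 0.042 without HDAC9-/- replicate 3. Mrps22 turned to 0.046 without wild type replicate 2 and 0.026 without HDAC9-/- replicate 3. Mrpl43 turned to 0.0025 without wild type replicate 2 and 0.0095 without HDAC9-/- replicate 1, and Mrpl37 to -0.013 without wild type replicate 3. Among the members picked by the stated rule, the sign turned for Mrpl47, Mrpl39, Mrps25, Mrpl1 and Mrpl49 without wild type replicate 3. It turned for Mrpl45, Mrpl39 and Mrpl18 without wild type replicate 2, and for Mrpl45, Mrpl48 and Mrpl39 without HDAC9-/- replicate 1. Without HDAC9-/- replicate 3 it turned for Mrps31, Mrpl1 and Mrpl18. Their ranges were -0.027 to 0.14 for Mrpl47, -0.037 to 0.041 for Mrpl39, -0.15 to 0.12 for Mrps25, -0.024 to 0.12 for Mrpl1, -0.064 to 0.12 for Mrpl49, -0.20 to 0.023 for Mrpl45, -0.044 to 0.054 for Mrpl18, -0.025 to 0.079 for Mrpl48 and -0.10 to 0.012 for Mrps31.

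Among the other lists, aligned medians gave -0.015 for cytosolic ribosomal proteins and 0.068 for the respiratory chain, array weights gave 0.024 for cytosolic ribosomal proteins, and leaving out dim probe sets gave -0.37 for plasma cell markers. With 1 array left out the medians ran from -0.021 to 0.044 for translation factors, -0.033 to 0.080 for assembly factors, -0.058 to 0.046 for biogenesis regulators, 0.048 to 0.11 for import and outer membrane genes, 0.080 to 0.10 for the respiratory chain, 0.0069 to 0.019 for cytosolic ribosomal proteins, 0.19 to 0.29 for cell cycle genes and 0.26 to 0.70 for myeloid markers. The causes of these changes were not tested. The alternative without probe sets ending in _x_at or _s_at was chosen after seeing the data.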
